A study of Mus musculus with 48 samples.

Results

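The genes of bile acid handling followed here were found as every probe annotated to Slc10a2, Fabp6, Slc51a, Slc51b, Abcc2, Nr1h4, Nr0b2, Fgf15 or Cyp27a1. They are 9 of the 19499 genes named by a probe, with 12 of the 41085 probes of the table. Slc10a2 has 3 probes, Fgf15 has 2 and each of the other genes has 1. The mice were female C57BL/6 animals gavaged with TCDD (2,3,7,8-tetrachlorodibenzo-p-dioxin, a persistent ligand of the aryl hydrocarbon receptor, AHR) or with sesame oil as the vehicle. The 8 TCDD doses were 0.01, 0.03 and 0.1 µg/kg at the low end, then 0.3, 1 and 3 µg/kg, and 10 and 30 µg/kg at the high end. Dosing was repeated every 4 days for 28 days, although 1 label also calls the gavage daily, and RNA came from the jejunal epithelium. Each of 24 treated animals was set against 1 of 3 vehicle animals on 2 dye-swapped two-colour arrays, which gave 3 pairs at each of the 8 doses. No age is given in the labels.

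The 3 vehicle animals carry the replicate numbers 1, 2 and 3, and each is the denominator of 8 ratios, 1 at every dose. They are called vehicle animals 1, 2 and 3 below, and values of a dose are given in that order. Every value is a log2 ratio of treated over vehicle, averaged over both arrays of a pair once the median of every array had been set to 0. The base of the logarithm and the sign are not stated; base 2 and treated over vehicle were assumed. That direction is likely and rests on TCDD-induced genes: Cyp1a1 and Tiparp each exceeded 0 on all 12 arrays from the 10 and 30 µg/kg groups. At 30 µg/kg, Cyp1a1 rose by 3.08 ± 0.36 (SD, n = 3; limma adjusted p = 0.000199) and Tiparp by 1.48 ± 0.26 (adjusted p = 5.57e-05). Ratios carry no level, so genes could not be ordered by abundance and the labelled tissue could not be checked against absolute marker levels. As ratios, the median of 8 measured enterocyte marker genes lay between -0.23 and 0.23 in the 24 pairs, and that of 13 genes of the distal intestine outside these 9 lay between -0.15 and 0.41. With vehicle animal 3 the median of the distal genes was below 0 in all 8 pairs, from -0.15 to -0.018. The median of 6 genes of the proximal intestine was above 0 in all 8, from 0.14 to 0.31. At 30 µg/kg the median of 3 endothelial genes was -0.52, -0.46 and -0.30. That of 5 B and plasma cell genes was -0.88, -1.50 and -0.061. Over the 24 pairs, these medians ran from -0.52 to 0.42 for endothelial genes and from -1.50 to 0.50 for B and plasma cell genes. Low medians also occurred in pairs of low doses. The endothelial median was 0.39, 0.31 and -0.45 at 0.01 µg/kg. For B and plasma cell genes, the pairs of 0.03 µg/kg had -0.10, 0.50 and -1.02. The part of these cells in the ratios was not tested. Exocrine pancreas genes stood apart in 6 pairs, where their median was 0.87 to 3.07 against -0.064 to 0.11 in the other 18.

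Bile acids are taken up from the gut lumen by the apical carrier Slc10a2, bound in the enterocyte by Fabp6 and passed to the portal blood by the basolateral carrier of Slc51a and Slc51b. Inside the cell they activate the nuclear receptor FXR, the product of Nr1h4, whose known targets in the intestine include Slc51a, Slc51b, Fabp6, Nr0b2 and Fgf15, the hormone that lowers bile acid synthesis in the liver. Slc10a2, Fabp6 and Fgf15 are known above all from the ileum, whereas the samples are jejunum.

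Promoters of both carrier subunits, Slc51a and Slc51b, and of Slc10a2 and Fabp6 are shown because each couple moved together across pairs, as described below. They are RefSeq sequences of GRCm38.p6, from 250 bases before the annotated gene start to 50 after it, written 5′ to 3′ on the gene's strand. Capitals mark the nuclear receptor core element AGGTCA, or TGACCT where it lies on the other strand, and the AHR core GCGTG, both searched on both strands. The windows are chr16:32487830-32488129 (minus strand), chr9:65422724-65423023 (minus strand), chr8:5105238-5105537 (minus strand) and chr11:43601513-43601812 (minus strand).
Slc51a: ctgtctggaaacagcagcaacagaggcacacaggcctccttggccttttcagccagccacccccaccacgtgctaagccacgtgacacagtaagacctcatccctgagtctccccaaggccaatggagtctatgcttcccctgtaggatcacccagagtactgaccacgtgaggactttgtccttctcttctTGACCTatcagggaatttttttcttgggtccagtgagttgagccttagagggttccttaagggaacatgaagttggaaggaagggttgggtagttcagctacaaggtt
Slc51b: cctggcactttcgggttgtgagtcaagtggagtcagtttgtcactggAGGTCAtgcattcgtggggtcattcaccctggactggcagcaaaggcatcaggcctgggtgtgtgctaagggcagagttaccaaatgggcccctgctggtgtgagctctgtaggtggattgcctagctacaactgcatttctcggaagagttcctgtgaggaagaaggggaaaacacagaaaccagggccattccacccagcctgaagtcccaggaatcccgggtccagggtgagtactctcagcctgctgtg
Slc10a2: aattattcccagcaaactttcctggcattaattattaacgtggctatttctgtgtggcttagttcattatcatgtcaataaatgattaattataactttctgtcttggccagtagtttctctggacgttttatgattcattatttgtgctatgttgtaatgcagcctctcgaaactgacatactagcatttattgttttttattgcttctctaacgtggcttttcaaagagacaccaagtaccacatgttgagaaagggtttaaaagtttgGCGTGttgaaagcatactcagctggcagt
Fabp6: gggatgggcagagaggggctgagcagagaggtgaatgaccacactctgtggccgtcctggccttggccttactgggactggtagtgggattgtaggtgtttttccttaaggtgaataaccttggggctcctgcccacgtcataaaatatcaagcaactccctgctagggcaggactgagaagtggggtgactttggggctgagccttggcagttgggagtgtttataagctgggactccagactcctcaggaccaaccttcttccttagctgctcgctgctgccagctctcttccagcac

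Of the 9 members, 8 had a promoter in the RefSeq table, and Fgf15 was not among them. AGGTCA was found in 4 of the 8, those of Slc51a, Slc51b, Abcc2 and Nr1h4, and in 16.3% of all 32851 promoters of that length. The AHR core was found in 2 of the 8, those of Slc10a2 and Nr0b2, and in 32.4% of all promoters. An inverted repeat of that element with a spacer of 1 base (AGGTCA, 1 base, TGACCT) is a form that FXR is known to bind. Exact copies of it were in 0 of the 8 and in 0.00913% of all promoters. Inexact copies, such as aggtgaataacct in the Fabp6 window, were neither searched nor marked. Absence of the exact repeat therefore does not show that a window lacks such an element. A match describes letters of the window and is not a measured binding site.

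No member probe passed the test at any dose. The test was limma on the pair means with 1 mean per dose, and called means a Benjamini-Hochberg adjusted p under 0.05 over all probes tested. Among 10 member probes tested at 30 µg/kg, 0 were called, against 1.36% of the 28163 probes tested, and 2 of the 10 had an unadjusted p under 0.05, against 14.2% of all. At 10 µg/kg, 0 of 10 were called (0.114% of all probes) and 3 of the 10 had an unadjusted p under 0.05 (6.8% of all). At 0.3 µg/kg, 0 of 10 were called (0.201% of all) and 1 had an unadjusted p under 0.05 (9.48% of all). At 0.01, 0.03, 0.1, 1 and 3 µg/kg, the member probes called were 0 of 11, 0 of 10, 0 of 10, 0 of 10 and 0 of 11, and the shares of all probes called were 0.0%, 0.0%, 0.0106%, 0.0% and 0.0%. The numbers with an unadjusted p under 0.05 at these 5 doses were 0, 0, 0, 1 and 1, against 2.86%, 3.76%, 4.67%, 5.43% and 3.93% of all probes. The slope of the log2 ratio per 10-fold dose was called for 0 of 10 member probes (0.201% of all), with an unadjusted p under 0.05 for 2 of them (10.1% of all). The mean at 10 and 30 µg/kg minus that at 0.01 to 0.1 µg/kg was called for 0 of 10 (0.367% of all), with an unadjusted p under 0.05 for 2 (8.65% of all). At 10 µg/kg, 7 of the 10 member probes lay below 0 with a median of -0.096, against 51.2% of all probes and a median of -0.0037. At 0.3 µg/kg, 9 of 10 lay below 0 with a median of -0.10, against 49.6% of all probes, and at 0.1 µg/kg 7 of 10 did, so the share below 0 was not highest at the high doses.

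**Figure D1:**
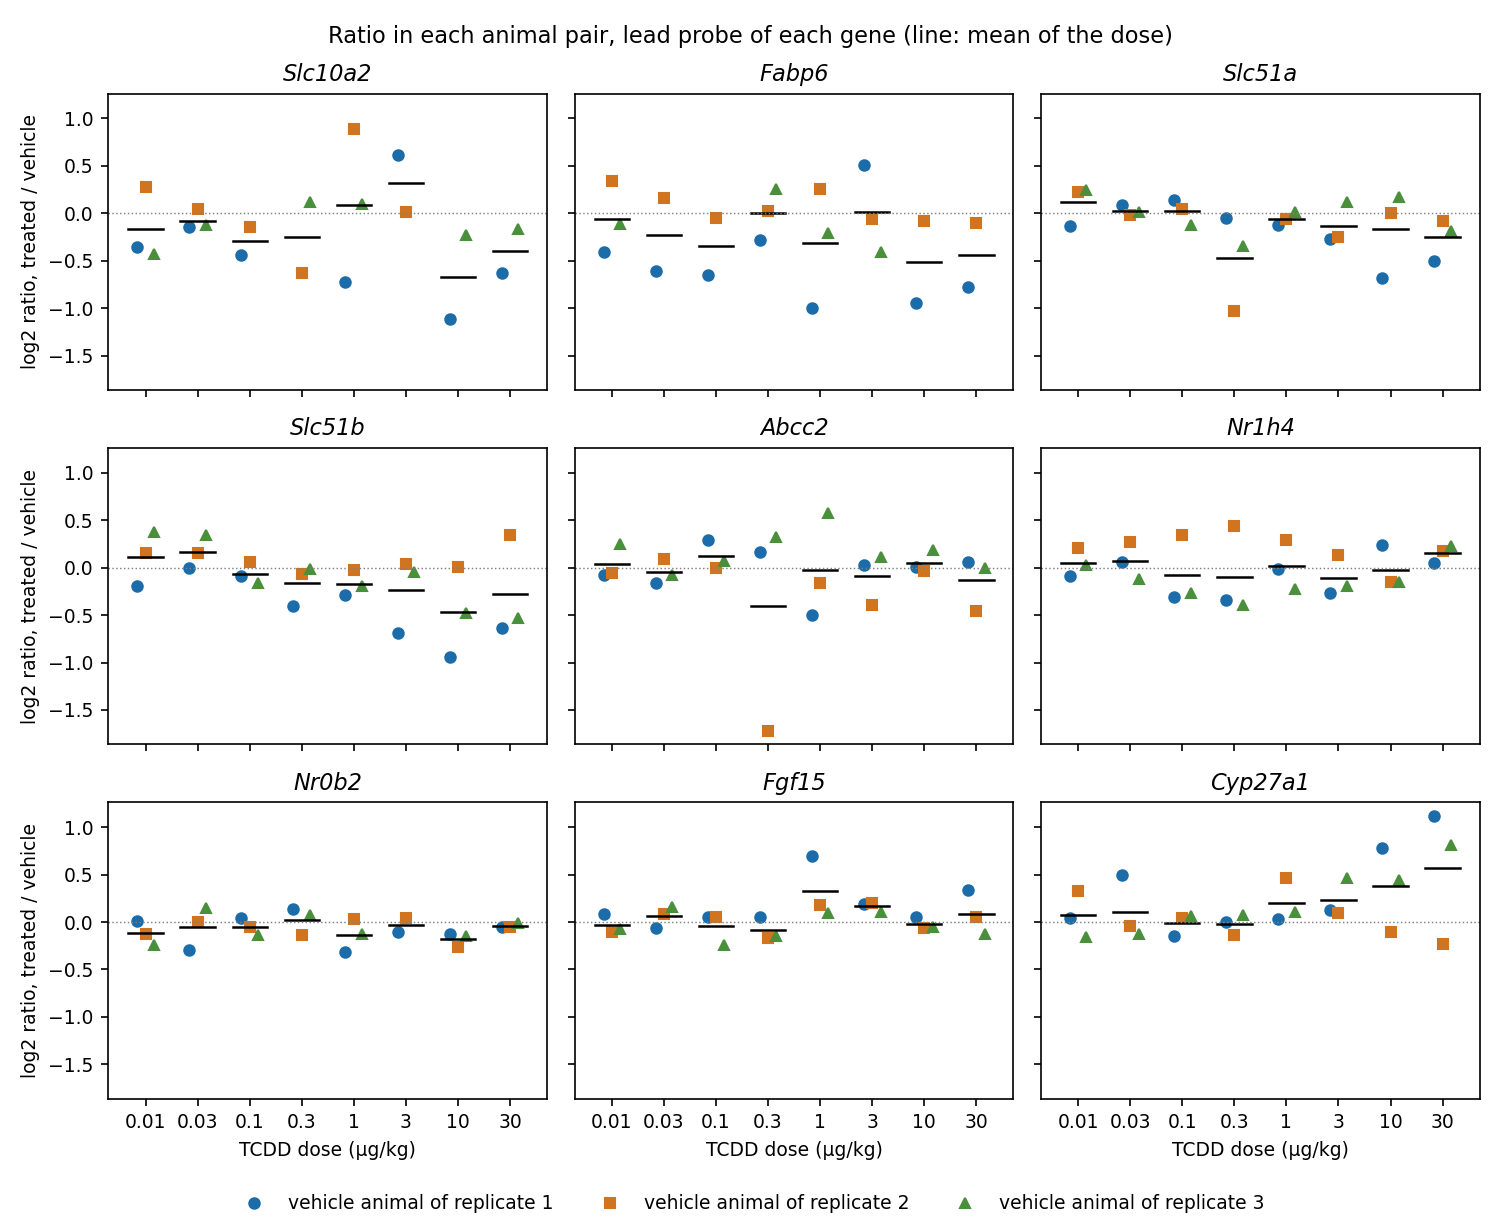
Log2 ratio of treated over vehicle in each animal pair (y axis) at the 8 TCDD doses in µg/kg (x axis) for the lead probe of each gene, coloured by the vehicle animal, with a line at the mean of the dose. Values of Nr0b2 lie between -0.32 and 0.15, those of Abcc2 between -1.72 and 0.58, and Cyp27a1 at 30 µg/kg spans 1.12 to -0.23.

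Uptake by Slc10a2 was measured by a lead probe with values on 43 of the 48 arrays and in 19 of the 24 pairs. Its other probes had values in 7 and 3 pairs, on 21 and 11 arrays. Log2 ratios of the lead probe ran from -1.12 to 0.89, with the highest SD of the 9 lead probes (0.47 over 19 pairs). At 10 µg/kg the ratios were -1.12 and -0.23 for vehicle animals 1 and 3, and at 30 µg/kg they were -0.63 and -0.16 for the same animals. Both pairs of each dose lay below 0, and vehicle animal 2 gave no value there. The mean was -0.67 ± 0.63 at 10 µg/kg (SD, n = 2; limma adjusted p = 0.719) and -0.40 ± 0.33 at 30 µg/kg (SD, n = 2; adjusted p = 0.613). At 1 µg/kg the pairs were -0.73, 0.89 and 0.10, so that pairs of 1 dose differed by more than the dose means did. These pairs differ in both the treated and the vehicle animal. The second probe had 1 value at 30 µg/kg, -0.52 for vehicle animal 2, and none at 10 µg/kg. At 3 µg/kg it had -0.20 and -0.65 for vehicle animals 1 and 3 (unadjusted p = 0.0423), where the lead probe had 0.61 and 0.018 for vehicle animals 1 and 2. In the pair of vehicle animal 1, both probes were measured and differed in sign. The remaining probe had 3 values in all, from -0.11 to 0.084, at 0.1, 1 and 3 µg/kg.

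Fabp6, the cytosolic bile acid binding protein of the ileum, had values in 20 pairs, from -1.002 to 0.51. In the pairs with vehicle animal 1 the ratios from the lowest to the highest dose were -0.41, -0.61, -0.65, -0.29, -1.002, 0.51, -0.95 and -0.77. Those with vehicle animal 2 were 0.34, 0.16, -0.046, 0.025, 0.25, -0.065, -0.077 and -0.10. The pairs with vehicle animal 1 were lower than those with vehicle animal 2 at every dose except 3 µg/kg. Vehicle animal 3 gave values at 4 doses only, -0.11, 0.26, -0.21 and -0.41 at 0.01, 0.3, 1 and 3 µg/kg. The slope of Fabp6 per 10-fold dose was -0.075 (95% interval -0.24 to 0.089; limma adjusted p = 0.805). The difference between the vehicle animals had an adjusted p of 0.0506.

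Fabp6 and Slc10a2 moved together over the 16 pairs in which both had a value, with a Pearson r of 0.807 and a Spearman rho of 0.821. The r was 0.781 without the 2 pairs farthest from the median of Slc10a2, and 0.773 with the mean of each vehicle animal removed. These pairs share 3 vehicle animals and both ratios of a pair share their arrays, so r describes these arrays. With vehicle animal 1, the dose of 10 µg/kg had Slc10a2 at -1.12 and Fabp6 at -0.95. The dose of 1 µg/kg had them at -0.73 and -1.002, and that of 3 µg/kg at 0.61 and 0.51. The highest Slc10a2 ratio, 0.89, was that of vehicle animal 2 at 1 µg/kg, where Fabp6 was 0.25. The value of 0.61 is that of the lead probe, and the second Slc10a2 probe had -0.20 in the same pair. An array probe reads RNA of the whole sample, so fewer cells expressing these genes and less RNA per cell cannot be told apart.

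**Figure D2:**
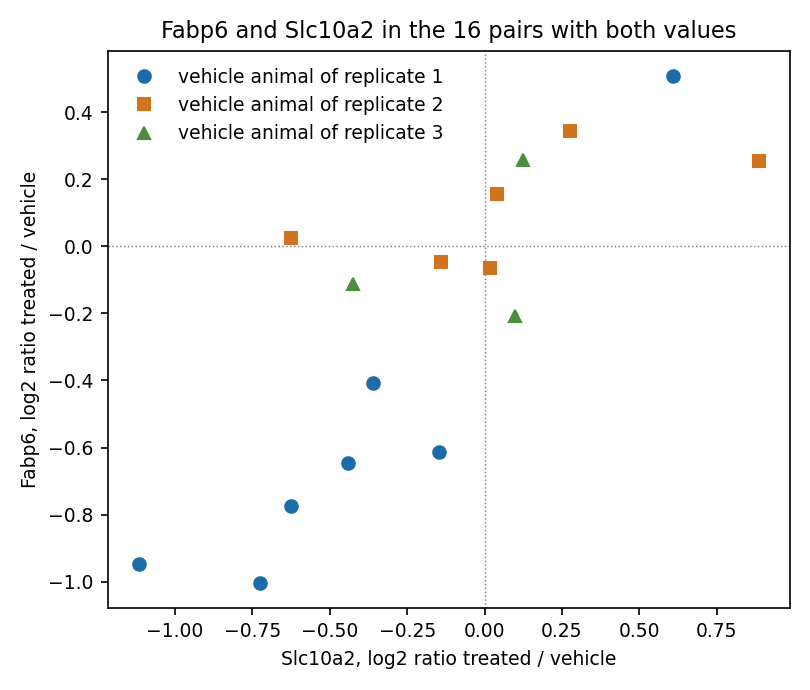
Log2 ratio of Fabp6 (y axis) against that of Slc10a2 (x axis), treated over vehicle, in the 16 pairs with both values, by vehicle animal. The points rise together (r 0.807), and 6 of the 7 pairs with vehicle animal 1 lie below 0 for both genes.

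Export to the blood runs through Slc51a and Slc51b, subunits of 1 carrier that is known to need both. Over its 24 pairs, Slc51b had the highest correlation between the 2 dye orientations among the lead probes (r = 0.948). That r does not show an offset between the dyes. Slc51b averaged -0.26 on arrays where Cy5 labelled the treated animal and -0.012 where Cy3 did. From the lowest to the highest dose, the ratios were -0.19, -0.0077, -0.085, -0.40, -0.29, -0.69, -0.94 and -0.64 with vehicle animal 1. They were 0.15, 0.16, 0.058, -0.064, -0.027, 0.036, 0.0076 and 0.35 with vehicle animal 2. They were 0.37, 0.35, -0.16, -0.011, -0.19, -0.049, -0.48 and -0.53 with vehicle animal 3. In the pairs with vehicle animals 1 and 3 the ratio at 10 and 30 µg/kg was below that at each of the 3 lowest doses, whereas the pair of vehicle animal 2 had its highest ratio at 30 µg/kg. The mean was -0.47 ± 0.47 at 10 µg/kg (SD, n = 3; limma adjusted p = 0.667) and -0.28 ± 0.54 at 30 µg/kg (SD, n = 3; adjusted p = 0.511). With vehicle animal 1, 2 or 3 left out, the mean at 30 µg/kg was -0.093, -0.59 and -0.15. The slope per 10-fold dose was -0.15 (95% interval -0.25 to -0.052, unadjusted p = 0.00446, limma adjusted p = 0.239). The mean was -0.37 at 10 and 30 µg/kg and 0.071 at 0.01 to 0.1 µg/kg, a difference of -0.44 (95% interval -0.78 to -0.11; adjusted p = 0.384).

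Within the pairs of each vehicle animal, the slope of Slc51b was -0.23, 0.014 and -0.25 for vehicle animals 1, 2 and 3. A test of the difference between these slopes, added after the values were seen, had an unadjusted p of 0.00155 and a limma adjusted p of 0.134. Without the 8 pairs of vehicle animal 2, the slope was -0.24 and passed the threshold (adjusted p = 0.0389, with 0.293% of all probes called). Without vehicle animal 1 or 3 it did not, and the slope over these 3 settings lay between -0.24 and -0.11. With the vehicle animal as a replicate block, the slope of -0.15 had an adjusted p of 0.0502. Since the animal left out was noticed in these values, the call without it is a description of the remaining pairs.

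Slc51a had ratios between -1.03 and 0.25. At 10 µg/kg they were -0.68, 0.0064 and 0.17, and at 30 µg/kg -0.50, -0.080 and -0.19. The pair with vehicle animal 1 was the lowest at both doses, as it was for Slc51b. The slope of Slc51a was -0.086 (95% interval -0.18 to 0.012; limma adjusted p = 0.565), and -0.036 without vehicle animal 1. At 0.3 µg/kg the ratios were -0.053, -1.03 and -0.34 with a mean of -0.48 ± 0.50 (SD, n = 3; adjusted p = 0.293), where 1 pair carried most of the mean. The subunits had an r of 0.452 and a rho of 0.461 over 24 pairs, which share 3 vehicle animals, and an r of 0.645 without the pair of 0.3 µg/kg and vehicle animal 2.

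**Figure D3:**
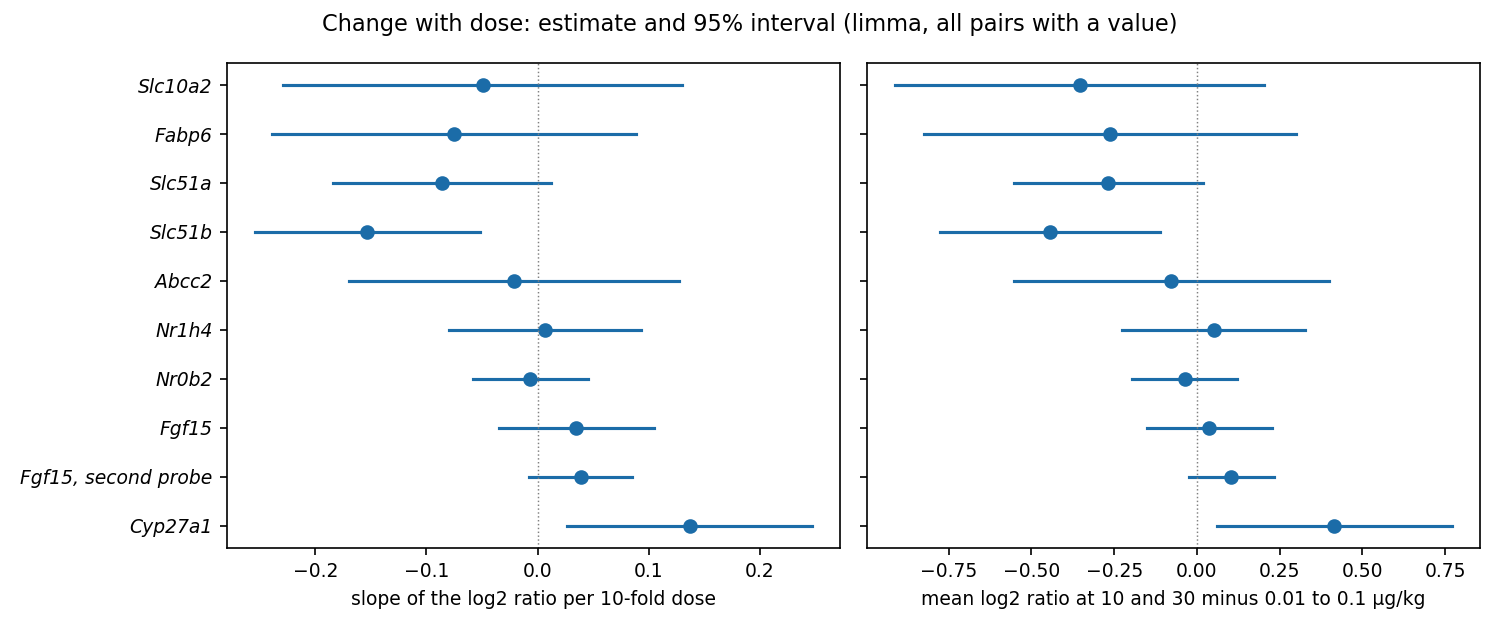
Estimates (points) and 95% intervals (lines) of the slope of the log2 ratio per 10-fold dose (left) and of the mean log2 ratio at 10 and 30 µg/kg minus that at 0.01 to 0.1 µg/kg (right) for the 9 lead probes and the second Fgf15 probe. Slc51b lies lowest in both panels (-0.15 and -0.44) and Cyp27a1 highest (0.14 and 0.41), and none passed the threshold after adjustment over all probes.

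Abcc2, an apical efflux pump for conjugated bile acids and other organic anions, had ratios between -0.49 and 0.58 in 23 pairs and -1.72 in the pair of 0.3 µg/kg and vehicle animal 2. The other pairs of that dose were 0.17 and 0.32. The dose mean of -0.41 ± 1.14 (SD, n = 3; limma adjusted p = 0.639) lay near none of the 3 pairs. In that pair Abcc2 ranked 23rd from the lowest of 20621 complete probes and Slc51a 107th, whereas Nr1h4, at 0.44, had its highest ratio of all pairs there. Ratios of Abcc2 at 30 µg/kg were 0.057, -0.46 and -0.0056, and at 10 µg/kg they were 0.0092, -0.040 and 0.18. Neither dose mean, 0.050 ± 0.12 at 10 µg/kg and -0.13 ± 0.28 at 30 µg/kg (SD, n = 3 each), was called, with limma adjusted p-values of 0.978 and 0.872. The slope was -0.021 (95% interval -0.17 to 0.13).

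The genes most like Abcc2 over the 24 pairs were the transporter genes Abcb1b (r = 0.932), Abcb1a (0.919) and Abcb4 (0.906). In the pair of 0.3 µg/kg and vehicle animal 2 they stood at -2.13, -2.74 and -2.03, and in the pair of that dose and vehicle animal 3 at 1.03, 1.40 and 1.32. Without the first of these pairs, the r values were 0.848, 0.81 and 0.802. Abcb1a and Abcb1b are close paralogs and Abcb4 is of the same family, so a probe of one may also bind RNA of another. Abcc2 and Slc51a had an r of 0.611 over 24 pairs but 0.152 without that 1 pair, so their likeness rests on it.

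**Figure D4:**
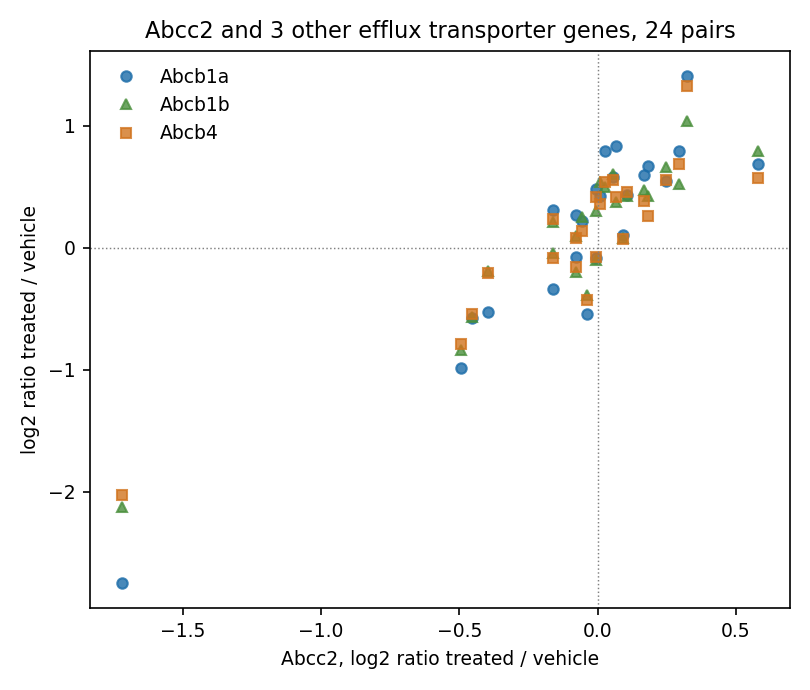
Log2 ratios, treated over vehicle, of Abcb1a, Abcb1b and Abcb4 (y axis) against Abcc2 (x axis) in 24 pairs. The point set at the lower left is the pair of 0.3 µg/kg and vehicle animal 2, with Abcc2 at -1.72, and the other 23 pairs still rise together.

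Sensing was represented by Nr1h4, which encodes FXR, and by Nr0b2, which encodes the corepressor SHP. Nr1h4 had ratios between -0.40 and 0.44 in 24 pairs, with a slope of 0.0064 per 10-fold dose (95% interval -0.080 to 0.093; limma adjusted p = 0.976). At 30 µg/kg the ratios were 0.049, 0.18 and 0.22, with a mean of 0.15 ± 0.091 (SD, n = 3; adjusted p = 0.711). All 3 pairs of that dose lay above 0, and the pairs of vehicle animal 2 lay above 0 at 7 of the 8 doses. Nr0b2 had values in 23 pairs between -0.32 and 0.15, the narrowest spread of the lead probes (SD 0.13). Its dyes disagreed: the ratios with the treated animal in Cy5 and in Cy3 had an r of -0.502, so differences between pairs were not reproduced between the 2 arrays. At 10 µg/kg Nr0b2 was -0.13, -0.26 and -0.15, with a mean of -0.18 ± 0.074 (SD, n = 3; limma adjusted p = 0.728). At 30 µg/kg it was -0.051, -0.057 and -0.0089. The 95% interval of the mean at 30 µg/kg was -0.21 to 0.14 for Nr0b2 and -0.15 to 0.45 for Nr1h4.

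Fgf15 was measured by 2 complete probes whose ratios had an r of 0.00282 over 24 pairs. At 1 µg/kg the lead probe was 0.70, 0.18 and 0.091, a mean of 0.32 ± 0.33 (SD, n = 3; unadjusted p = 0.00368, limma adjusted p = 0.905), and the second probe was -0.036, -0.078 and -0.024. The lead probe was above 0 in all 3 pairs and the second probe below 0 in all 3. The second probe at 30 µg/kg was 0.21, 0.21 and 0.22 (mean 0.22 ± 0.0037, SD, n = 3; unadjusted p = 0.00451, adjusted p = 0.129), and the lead probe 0.34, 0.052 and -0.12 (mean 0.090 ± 0.23; adjusted p = 0.753). The second probe's 2 dye orientations had an r of -0.168, against 0.511 for the lead probe. Read from the Cy5-treated orientation alone, the second probe averaged 0.40 at 30 µg/kg and passed the threshold (adjusted p = 0.04, with 6.42% of all probes called in that orientation). In the Cy3-treated orientation alone it averaged 0.030 (adjusted p = 0.922). Over all pairs, the second probe averaged 0.17 in the Cy5-treated and -0.13 in the Cy3-treated orientation. A mean of 1 orientation therefore carries an offset between the dyes. The slopes were 0.035 (95% interval -0.034 to 0.10) for the lead and 0.039 (-0.0074 to 0.085) for the second probe.

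Cyp27a1, the mitochondrial sterol 27-hydroxylase that starts the acidic route of bile acid synthesis, had the highest mean of the lead probes at 30 µg/kg. From the lowest to the highest dose the ratios were 0.040, 0.50, -0.15, 0.0057, 0.034, 0.13, 0.78 and 1.12 with vehicle animal 1. They were 0.32, -0.045, 0.043, -0.14, 0.46, 0.094, -0.10 and -0.23 with vehicle animal 2. They were -0.15, -0.12, 0.069, 0.078, 0.10, 0.46, 0.45 and 0.81 with vehicle animal 3. The pairs of vehicle animals 1 and 3 had their highest ratio at 30 µg/kg, and the pair of vehicle animal 2 had its lowest there. The mean was 0.38 ± 0.45 at 10 µg/kg (SD, n = 3; limma adjusted p = 0.746) and 0.57 ± 0.71 at 30 µg/kg (SD, n = 3; unadjusted p = 0.00657, adjusted p = 0.154). The slope was 0.14 per 10-fold dose (95% interval 0.027 to 0.25; adjusted p = 0.357). The mean was 0.47 at 10 and 30 µg/kg and 0.056 at 0.01 to 0.1 µg/kg, a difference of 0.41 (95% interval 0.059 to 0.77; adjusted p = 0.486).

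The slopes of Cyp27a1 within vehicle animals 1, 2 and 3 were 0.23, -0.081 and 0.26, and the test of their difference had an unadjusted p of 0.00664 and a limma adjusted p of 0.189. Across all probes that test called 0.0148% at an adjusted p under 0.05 and 15.6% at an unadjusted p under 0.05. Without vehicle animal 2, Cyp27a1 averaged 0.97 at 30 µg/kg and passed the threshold (adjusted p = 0.0119, with 0.557% of all probes called), as did its contrast of high and low doses (0.76, adjusted p = 0.0399, with 0.345% of all called). With vehicle animal 1 left out, the mean at 30 µg/kg was 0.29, the lowest of the 3 settings, with an adjusted p of 0.616. In Cy3 alone the mean was 0.68 (adjusted p = 0.0365, with 3.59% of all called), and in Cy5 alone it was 0.45 (adjusted p = 0.272). Over all pairs, Cyp27a1 averaged 0.30 in Cy3 and 0.080 in Cy5, so a mean of 1 orientation carries an offset between the dyes. Its slope was 0.13 in Cy3 alone and 0.14 in Cy5 alone. With each dose fitted alone, the mean of 0.57 had an adjusted p of 0.70. Cyp27a1 and Slc51b ran in opposite directions, with an r of -0.648 and a rho of -0.549 over 24 pairs that share 3 vehicle animals. The r was -0.552 without the 2 pairs farthest from the median of Cyp27a1 and -0.622 with the mean of each vehicle animal removed.

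Pancreas genes moved with the pairs that carry these values at 30 µg/kg. Their median over 10 measured genes of 15 was 3.07, -0.003 and 0.87 at 30 µg/kg, where Cyp27a1 was 1.12, -0.23 and 0.81 and Slc51b -0.64, 0.35 and -0.53. At 10 µg/kg the pancreas median was 0.081, 0.057 and 0.029, while Cyp27a1 was 0.78, -0.10 and 0.45 and Slc51b -0.94, 0.0076 and -0.48. In the other 4 pairs with raised pancreas genes, the median was 2.57 (0.03 µg/kg, vehicle animal 2), 1.56 (0.1 µg/kg, vehicle animal 2), 1.10 (0.3 µg/kg, vehicle animal 3) and 2.04 (1 µg/kg, vehicle animal 1). Cyp27a1 was -0.045, 0.043, 0.078 and 0.034 in these 4 pairs, and Slc51b was 0.16, 0.058, -0.011 and -0.29. The part of pancreas RNA in the ratios at 30 µg/kg was not tested. Without the pairs of vehicle animals 1 and 3 at 30 µg/kg, the slope was 0.055 for Cyp27a1 (limma adjusted p = 0.927) and -0.13 for Slc51b (adjusted p = 0.721). The contrast of high and low doses was then 0.015 for Cyp27a1, against 0.41 with all pairs, and -0.13 for Slc51b, against -0.44. That setting leaves vehicle animal 2 alone at 30 µg/kg, while all 3 vehicle animals remain at the low doses. The smaller contrasts therefore do not separate the pairs left out from the weight given to vehicle animal 2. With the whole 30 µg/kg dose left out, the slope was 0.098 for Cyp27a1 and -0.19 for Slc51b, against 0.14 and -0.15 with all pairs. Neither slope without that dose was called (limma adjusted p = 0.88 and 0.589).

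**Figure D5:**
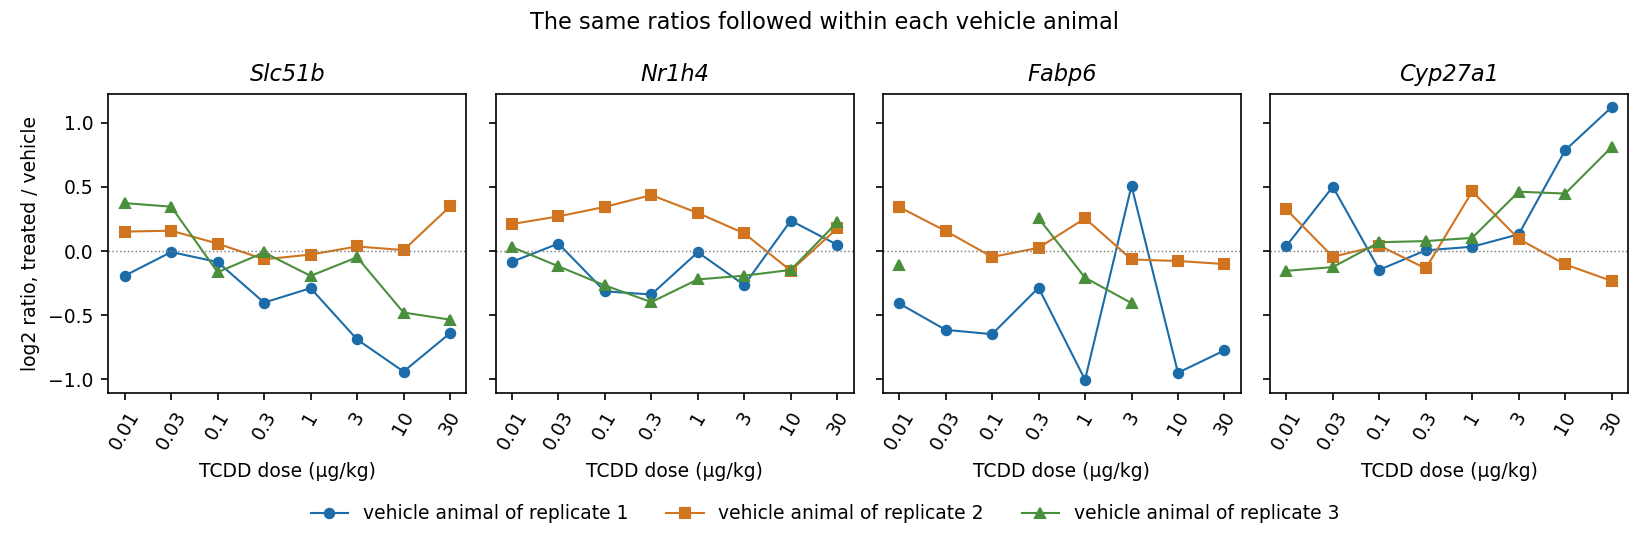
Log2 ratios, treated over vehicle (y axis), at the 8 TCDD doses in µg/kg (x axis) joined within each vehicle animal for Slc51b, Nr1h4, Fabp6 and Cyp27a1, with gaps where a pair has no value. With vehicle animals 1 and 3, Slc51b is lowest and Cyp27a1 highest at 10 or 30 µg/kg, and the line of vehicle animal 2 does not follow.

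Of the comparisons over all 24 pairs, only that between the vehicle animals called any member probe. Ratios differed between the 3 vehicle animals for 2 of 10 member probes, those of Slc51b and Nr1h4, against 18.3% of the 24617 probes tested, a share near that of the members. An unadjusted p under 0.05 was found for 5 of the 10, against 33.5% of all. Slc51b averaged -0.41 ± 0.32, 0.083 ± 0.13 and -0.089 ± 0.33 over the pairs of vehicle animals 1, 2 and 3 (SD, n = 8 each; limma F = 10.8, adjusted p = 0.0117). Nr1h4 averaged -0.083 ± 0.21, 0.21 ± 0.18 and -0.14 ± 0.19 (SD, n = 8 each; F = 7.62, adjusted p = 0.0296). With vehicle animal 1 left out, the difference of Slc51b had an adjusted p of 0.435. For Nr1h4 the adjusted p was 0.0696, 0.685 and 0.101 without vehicle animals 1, 2 and 3. A vehicle animal is 1 mouse, so its own level and anything shared by its arrays cannot be told apart.

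Likeness to other genes was described for the 6 lead probes with all 24 pair values, as the highest Pearson r over the pairs, which share 3 vehicle animals. For Slc51b these genes were Cops6 (r = 0.868), Creb3 (0.858) and Zc3h15 (0.852), and for Cyp27a1 they were Agpat3 (0.856), Mapk6 (0.847) and Cdc37l1 (0.843). For Slc51a they were Mtch2 (0.857), Ccdc116 (0.806) and Pacsin2 (0.797). Without the pair of 0.3 µg/kg and vehicle animal 2, these 3 values were 0.821, 0.653 and 0.66. For Fgf15 they were Ly6g6d (0.883), Myb (0.879) and Snx4 (0.878), and for Nr1h4 Leo1 (0.845), Olfr120 (0.826) and Fam207a (0.78). None of these genes is another of the 9 members.

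Beyond the 9, a list of 63 other genes of bile acid transport, sensing, synthesis and breakdown was read, of which 59 had a probe. In all, 3 of 84 tested probes of this list were called at 30 µg/kg, 1 higher and 2 lower, and the slope was called for 2 of 83, both lower (0.0529% of all probes). The contrast of high and low doses was called for 1 of 79, lower (0.0704% of all). By group, 1 of 5 breakdown genes with a probe was called lower at 30 µg/kg, as was 1 of 17 synthesis and conjugation genes, and 1 of 17 receptors and regulators was called higher. No gene of the 15 in transport and of the 5 in the Fgf15 axis was called at that dose. The share of all probes called at 30 µg/kg was 0.699% higher and 0.657% lower.

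Cyp3a25, a cytochrome P450 of the family that hydroxylates bile acids and drugs, fell with dose over all pairs. Its ratios at 30 µg/kg were -0.63, -0.79 and -0.94, and at 10 µg/kg -0.25, -0.56 and -0.39, all below 0. The mean at 30 µg/kg was -0.79 ± 0.15 (SD, n = 3; limma adjusted p = 0.0341) and the slope was -0.29 per 10-fold dose (95% interval -0.40 to -0.18; adjusted p = 0.0128). The contrast was -0.79 (mean -0.59 at 10 and 30 µg/kg and 0.19 at 0.01 to 0.1 µg/kg; adjusted p = 0.0396). A second Cyp3a25 probe had a slope of -0.25 (adjusted p = 0.057) and a mean of -0.70 ± 0.22 at 30 µg/kg (SD, n = 3; adjusted p = 0.0833). Without vehicle animal 1 or 3 the mean at 30 µg/kg was -0.87 and -0.71 with an adjusted p of 0.149 and 0.178, and the slope was -0.32 and -0.24 with one of 0.109 and 0.132. The call at 30 µg/kg was also lost in Cy3 alone (-0.46, against -1.12 in Cy5 alone), where a mean carries any offset between the dyes. The call at 30 µg/kg was lost under quantile normalization too (-0.76, adjusted p = 0.0568). That of the slope was lost without the 30 µg/kg dose (-0.25, adjusted p = 0.568) and without its 2 pairs with pancreas genes (-0.27, adjusted p = 0.184).

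Slc27a2, an acyl-CoA synthetase of very long fatty acids and bile acid intermediates, fell at 30 µg/kg on 1 of its probes. The ratios were -0.63, -0.81 and -0.22 (mean -0.55 ± 0.30, SD, n = 3; limma adjusted p = 0.0235), and another probe had -0.42, -0.17 and 0.10 (adjusted p = 0.516). Its remaining probe had 1 value at that dose, 0.42 for vehicle animal 2. Without vehicle animal 1 or 2 the first probe had an adjusted p of 0.218 and 0.294. Vdr, the vitamin D receptor, which also binds a secondary bile acid, rose at 30 µg/kg with ratios of 0.45, 0.40 and 0.55 (mean 0.46 ± 0.074, SD, n = 3; adjusted p = 0.0284). All 3 pairs lay above 0, and the adjusted p was 0.206, 0.0976 and 0.0858 without vehicle animals 1, 2 and 3. With the replicate block the contrast of Vdr, 0.34, passed the threshold (adjusted p = 0.0282, against 0.204 with no block), and with an estimated correlation it did not (adjusted p = 0.0508).

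Abcg8, a subunit of the sterol exporter of the apical membrane, fell with dose on 1 of its 2 probes, with a slope of -0.16 (95% interval -0.22 to -0.089; limma adjusted p = 0.0342). The other Abcg8 probe had a slope of -0.046 (adjusted p = 0.37). At 30 µg/kg the first probe had ratios of -0.20, -0.31 and -0.41, all below 0, with an adjusted p of 0.205. Without vehicle animal 1 or 3 the slope was -0.18 and -0.094, with an adjusted p of 0.254 and 0.282. With the replicate block the contrast, -0.42, was called (adjusted p = 0.0346, against 0.0905 with no block). The call of the slope was lost in Cy5 alone (-0.16, adjusted p = 0.181), in Cy3 alone (-0.15, adjusted p = 0.209) and without the 30 µg/kg dose (-0.15, adjusted p = 0.589). It was also lost without the pair of vehicle animal 1 or 3 at 30 µg/kg (adjusted p = 0.0875 and 0.103).

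Ratios of the same list differed between the vehicle animals for 14 of 76 probes of 13 genes, against 18.3% of all probes. Cdx2, the homeobox factor of intestinal identity, averaged 0.63 ± 0.21, 0.073 ± 0.23 and -0.43 ± 0.11 over the pairs of vehicle animals 1, 2 and 3 (SD, n = 8 each; limma adjusted p = 5.49e-05). Ppara, the fatty acid receptor, averaged 0.32 ± 0.31, -0.68 ± 0.33 and 0.27 ± 0.17 (SD, n = 8 each; adjusted p = 0.000176). The other genes were Slco1a4, Atp8b1, Cyp2c70, Amacr, Vdr, Fgfr1, Cyp46a1, Slco1b2, Abcb1a, Gata6 and Gata4. The called probes of Atp8b1 differed in sign for vehicle animal 2. Their means over the pairs of vehicle animals 1, 2 and 3 were 0.087, 0.26 and -0.069 on 1 probe and 0.25, -0.21 and -0.23 on the other.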

How the data were processed

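RNA of jejunal epithelium was compared on 48 two-colour Agilent arrays. The deposited table holds log ratios taken as log2, with base, sign, scanner software, background correction, normalization and filter not given in the sources used here. Per the labels, Cy3 and Cy5 were exchanged on the second array of each pair. Over complete probes, the mean profiles of the 2 dye orientations had an r of -0.595. A mean taken from 1 orientation therefore carries the offset of a probe between the dyes. The files hold no intensities, so dim or saturated spots are unknown, and the number of animals limits the precision. Each array holds 27341 to 33126 values. On each array, 203 to 335 probes share 1 identical value, which was set to missing, and 0 member values were affected. Probes follow the array's annotation table, where 32555 of 32600 listed probes name 1 gene and 45 name several.

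Arrays were centred on their median, and both arrays of a pair were averaged where both had a value. limma 3.58.1 (R 4.3.3, statmod 1.5.0) fitted all 24 pairs with 1 mean per dose, needing at least 2 pairs at a dose, or a slope on log10 dose with at least 12 pairs over 4 doses. Tests were two-sided, and p-values were adjusted by Benjamini-Hochberg over all probes tested. An F test compared the 3 vehicle animals. The code was tested on simulated data. All member probes are named. The lead probe is the one with the most pair values, and the first by name among equals. For the 6 lead probes with all pair values, the 3 genes with the highest correlation are named, leaving out predicted and clone-named genes. Of the other bile acid genes, those called in a test are named. Members and lists were chosen with earlier results of these data known.

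Replicate numbers pair the ratios because, per the labels, ratios of 1 number share a vehicle animal. After dose means were removed, pairs sharing a vehicle animal correlated with a mean of 0.276 over 84 combinations, against -0.138 over 168 combinations of different animals. P-values treat the 24 treated animals as replicates. Alternatives covered centring, quantile normalization, complete probes, genes in place of probes, shared values kept, single dye orientations, each dose alone, a replicate block, and leaving out each vehicle animal or single pairs.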

Additional observations from a re-analysis of the deposited data

Results flagged for a closer look

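Slc51b was singled out because its treated over vehicle ratios differed between the vehicle animals (limma F test, adjusted p = 0.0117). Its 8 pairs with vehicle animal 1 all lay below 0, from -0.94 to -0.0077. Those with vehicle animal 2 ran from -0.064 to 0.35 and those with vehicle animal 3 from -0.53 to 0.37. Leaving out vehicle animal 1, 2 or 3 gave adjusted p-values of 0.435, 0.0398 and 0.0217. Nr1h4 was singled out by the same test (adjusted p = 0.0296), with 7 of its 8 pairs of vehicle animal 2 above 0, against 3 and 2 of the 8 pairs of vehicle animals 1 and 3. Leaving out any 1 vehicle animal raised its adjusted p above the threshold, to between 0.0696 and 0.685. The test called 18.3% of all probes.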

How the results depend on the processing

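Of 602 recomputed values of single member probes, 567 kept their direction and their side of the threshold, 5 passed it only under the alternative and 30, none of them called, changed sign. The number of member probes called at 30 µg/kg was 0 with all pairs and 0 to 1 with a vehicle animal left out. It was 1 in Cy5 alone (second Fgf15 probe) and 1 in Cy3 alone (Cyp27a1), where a mean carries any offset between the dyes. For the slope and for the contrast the number called was 0, and 0 to 1 with a vehicle animal left out. Between vehicle animals it was 2, 3 uncentred or after quantile normalization, and 0 to 2 with one left out, where Fabp6 passed without vehicle animal 3 (adjusted p = 0.0439). The 1 call at 30 µg/kg and in the contrast came without vehicle animal 2 (Cyp27a1), as did that of the slope (Slc51b). With the replicate block, no member was called (Slc51b slope -0.15, adjusted p = 0.0502). The shared vehicle animals justify the block for the slope and the contrast, where their levels enter both sides alike. A mean at 30 µg/kg still carries them, while the block takes their differences out of the error, so its calls may be too many. Probes called among all were, with the block, 965 against 382 at 30 µg/kg, 162 against 57 for the slope and 236 against 94 for the contrast. Those at 30 µg/kg were 666 uncentred, 214 after quantile normalization, 21 with each dose alone, 2041 in Cy5 and 1107 in Cy3 alone, 195 and 251 without the pair of vehicle animal 1 or 3 at that dose, and 146 to 233 without a vehicle animal. The slope called 2 without 30 µg/kg, 8 without the 2 pairs with pancreas genes, and 11 to 82 without a vehicle animal. The contrast called 26 to 77, and the difference between vehicle animals 708 to 2337 against 4495, without a vehicle animal. Signs that changed were those of Abcc2 without vehicle animal 2 (0.026 at 30 µg/kg, slope 0.0032, contrast 0.012), without vehicle animal 3 (-0.015 at 10 µg/kg) and in Cy3 (slope 0.0059, contrast 0.033). Fabp6 changed in Cy5 (slope 0.053, contrast 0.078), and Nr0b2 at 10 µg/kg in Cy3 (0.053). Fgf15 changed without vehicle animal 1 (-0.035 at 30 µg/kg, contrast -0.028), without its pair at 30 µg/kg (-0.035, contrast -0.025) and in Cy5 (0.10 at 10 µg/kg). The second Fgf15 probe changed at 10 µg/kg without vehicle animal 1 (-0.029) and in Cy3 (-0.15). Nr1h4 at 10 µg/kg changed without vehicle animals 2 and 3 (0.045 and 0.042) and in Cy3 (0.031). Its slope changed under quantile normalization (-0.00032), without vehicle animals 1 and 3 (-0.018 and -0.0096), in Cy3 (-0.0025), without the 2 pancreas pairs (-0.013), without 30 µg/kg (-0.033) and without the pair of vehicle animal 3 at 30 µg/kg (-0.0074), and its contrast without vehicle animals 1 and 3 (-0.053 and -0.0032). Without vehicle animal 1, the slope of Slc10a2 was 0.016 and Slc51a at 10 µg/kg was 0.087. The other ends of the ranges without a vehicle animal or single pair were -0.23 for Abcc2 at 30 µg/kg, -0.036 for its slope and -0.13 for its contrast, 0.20 for Fgf15 at 30 µg/kg and 0.091 for its contrast, 0.059 for the second Fgf15 probe at 10 µg/kg, 0.047 for the slope of Nr1h4 and 0.21 for its contrast, -0.10 for the slope of Slc10a2 and -0.34 for Slc51a at 10 µg/kg. Of 146 recomputed values of the other bile acid genes, 43 lost their call, 3 gained one and 0 changed sign. The causes were not tested. The settings without single pairs at 30 µg/kg or 0.3 µg/kg were chosen after seeing the data.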

Other observations

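The pair of 0.3 µg/kg and vehicle animal 2, in which Abcc2 and Slc51a stood lowest, also had extreme ratios for genes of the circadian clock, which were picked after their values were seen. Nr1d2, a repressor of the clock loop, was -3.18 there, against -0.86 to 0.80 in the other 23 pairs. Ciart was -2.51 (-1.55 to 1.62 elsewhere), 1 of the 2 probes of the clock-output factor Tef was -2.39 (-0.82 to 0.73) and Hlf was -1.57 (-0.96 to 0.86). The ratio of Nfil3 was 2.43 there (-0.065 to 0.43 elsewhere), that of the core activator Arntl 1.73 (-0.40 to 0.67) and that of Cry1 1.30 (-0.70 to 0.39). Dbp was -0.82 (-0.53 to 0.41 elsewhere), Per1 -0.94 (-0.72 to 0.56) and the 2 probes of Per2 -1.03 (-1.03 to 0.91) and 0.11 (-0.058 to 0.30). The 3 probes of Clock lay between -0.054 and 0.31 in that pair. The pair of the same dose and vehicle animal 3 had Ciart at 1.62 and Abcb1a at 1.40, each the highest of its 24 ratios. Over the 23 other pairs, Abcc2 had an r of 0.762 with Ciart, 0.675 with Nr1d2 and -0.554 with Arntl, but -0.164 with Nfil3 (-0.817 with all 24), 0.452 with Cry1 (-0.405 with all 24) and -0.286 to -0.0856 with the 3 Clock probes, as a description of pairs that share vehicle animals. No time of killing is in the labels.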
